A study of Mus musculus with 8 samples.

Results

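The nuclear-encoded genes of the mitochondrial respiratory chain and of the ATP synthase were followed in BV2 cells, an immortalized mouse microglial line. They were taken as the protein-coding genes of the deposited tables whose symbols begin with Nduf followed by a, b, c, s or v, are Sdha to Sdhd, or begin with Uqcr, Cox4 to Cox8 or Atp5, with the Ndufaf assembly factors left out. This gave 88 of 56859 genes. Complex I had 39 members, complex II 4, complex III 8, complex IV 20 and complex V, the ATP synthase, 17. Ndufa4 was counted in complex IV, where its protein is known to sit, but Ndufa4l2, which had too few counts to be tested, was left in complex I by its symbol. The inhibitor of the ATP synthase, which carries the symbol Atpif1, is not a member because its symbol falls outside the rule.

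All 8 libraries came from wild-type BV2 cells labelled as having gone through oxygen and glucose deprivation with reperfusion, so no library of cells outside that treatment is analysed here. The comparison of the study is between cells with deprivation alone, called control, and cells that also received 10panx1, a peptide that blocks pannexin 1 channels, and it was designed to look for pathways tied to a change in the kinase Src. Each treatment had 3 libraries at 9 h and a single library at 6 h. The treatment label of the 10panx1 library at 6 h does not name the peptide, and this library was grouped by its title. The labels give no dose, do not say whether the hours count deprivation alone, and do not name separate cultures behind the libraries of a group, so the p-values rest on a spread between libraries that may be technical. BV2 is a single transformed line, which limits it as a model of microglia in tissue.

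The respiratory chain moves electrons from NADH (complex I) and succinate (complex II) through complex III to complex IV, which passes them to oxygen, and complexes I, III and IV pump protons while they do so. The ATP synthase lets the protons flow back through its membrane rotor and uses the flow to make ATP. A small set of subunits, most of them shared with bacteria, carries the redox centres, pumps and catalytic sites, and some of these are encoded in mitochondrial DNA. The many other subunits, often very short proteins, are called supernumerary and serve assembly, stability and the docking of complexes. Oxygen is the terminal electron acceptor, so this machinery works directly on one of the substrates withdrawn in oxygen and glucose deprivation.

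Promoters of these genes are known as targets of nuclear respiratory factor 1 (NRF1), GABP, YY1 and the estrogen-related receptors (ERR), which coordinate many of them. RefSeq promoter windows (GRCm38.p6), from 250 bases before to 50 bases after the start of a gene, were found for 70 of the 88 members. On either strand, the NRF1 motif (GCGCA, any base, GCGC) stood in 17 of the 70 (24.29%), against 7.169% of 17492 protein-coding genes, and the YY1 motif (AA, any base, ATGGCG, any base, C) in 8 (11.43%), against 2.395%. The ERR motif TCAAGGTCA stood in 2 (2.857%, against 0.3773%). The GABP motif CCGGAAGT stood in 5 (7.143%, against 5.688%), and the hypoxia response element ACGTGC in 4 (5.714%, against 7.398%). These are matches of letters and not shown to be sites in these cells. Of the 15 members that were lower with 10panx1 at 9 h, described below, 13 had a window, and the NRF1 motif stood in 3 of these, Atp5g3, Atp5k and Atp5o, and the GABP motif in 2, Cox8a and Uqcrh. The windows of 4 of them are shown because they are the promoters of genes that moved together while holding different motifs, with Ndufb1, which had the smallest p, holding none of the 5. Capitals mark motif matches: in Atp5g3 the overlapping pair of hypoxia response elements, then ERR and NRF1, in Atp5k NRF1, and in Cox8a 2 matches to GABP. The windows lie on the minus strand of chr12:101975689-101975988 (Ndufb1), chr2:73911277-73911576 (Atp5g3), chr5:108434350-108434649 (Atp5k) and chr19:7217567-7217866 (Cox8a).
Ndufb1: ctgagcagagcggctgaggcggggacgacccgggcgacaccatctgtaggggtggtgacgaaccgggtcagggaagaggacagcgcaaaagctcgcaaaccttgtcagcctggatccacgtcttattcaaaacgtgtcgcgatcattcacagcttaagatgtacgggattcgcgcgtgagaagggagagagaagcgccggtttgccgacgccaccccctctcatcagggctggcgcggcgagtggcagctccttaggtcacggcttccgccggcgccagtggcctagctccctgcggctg
Atp5g3: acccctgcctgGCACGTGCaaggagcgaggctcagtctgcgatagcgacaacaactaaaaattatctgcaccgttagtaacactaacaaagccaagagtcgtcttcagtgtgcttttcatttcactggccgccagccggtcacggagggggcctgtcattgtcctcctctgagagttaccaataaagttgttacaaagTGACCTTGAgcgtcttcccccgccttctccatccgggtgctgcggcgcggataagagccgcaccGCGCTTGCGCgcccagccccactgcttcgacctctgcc
Atp5k: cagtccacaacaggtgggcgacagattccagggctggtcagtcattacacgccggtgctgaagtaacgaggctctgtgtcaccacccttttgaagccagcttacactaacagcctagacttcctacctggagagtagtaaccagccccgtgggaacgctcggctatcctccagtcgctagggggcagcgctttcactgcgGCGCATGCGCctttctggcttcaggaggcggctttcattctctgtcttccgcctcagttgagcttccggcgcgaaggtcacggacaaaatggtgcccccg
Cox8a: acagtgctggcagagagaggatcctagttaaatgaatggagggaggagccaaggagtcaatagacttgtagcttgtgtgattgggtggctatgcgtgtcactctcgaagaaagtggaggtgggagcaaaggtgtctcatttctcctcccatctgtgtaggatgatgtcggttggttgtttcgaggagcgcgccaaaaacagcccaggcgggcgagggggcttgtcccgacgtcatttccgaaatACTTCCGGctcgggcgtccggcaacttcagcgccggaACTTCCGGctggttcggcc

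Total counts ranged from 18056693 to 23164860 per library, where 3 counts correspond to between 0.130 and 0.166 CPM, that is, counts scaled to the size of the library. Mitochondrial transcripts took from 1.141% to 1.515% of counts. Of 12 microglial markers 11 could be tested at 9 h, and their summed level was 1541 to 1810 CPM. C1qa, a microglial marker, was close to 0 and Aif1 low, at a control mean of 1.81 CPM at 9 h. Control replicate 3 at 9 h stood apart: 8 hepatocyte markers summed to 208 CPM and 6 fibroblast markers to 41.0 CPM in it, against at most 1.57 CPM for either list in the other libraries. A few genes carried these sums: Hpx was at 157 CPM, Fgb at 29.6 and Serpinc1 at 17.2, and Col1a1 at 29.1. Other markers of the same lists stayed low in this library, with Alb at 4.32 CPM, Ttr at 0.158 and Serpina1a, Dcn and Lum at 0. The members' calls at 9 h are given with and without this library, and the part of these markers in the calls was not tested.

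Of the 88 members 81 had enough counts to be tested. The 7 others are isoforms or copies with other tissue patterns, and the highest count of any of them in any library was 7, for Cox4i2, the hypoxia-responsive isoform of subunit 4. Cox6b2 reached 5, Ndufb11b 3, Ndufa4l2, known as a hypoxia target that replaces Ndufa4, 2 and Cox7b2 1, and Cox8b and Cox8c had no count. Per gene length, Atp5b, the catalytic beta subunit of the ATP synthase, was the highest member at a mean of 2116 TPM, the deposited unit that corrects for gene length, over the 8 libraries. Atp5a1, the alpha subunit, followed at 863, Atp5g3, a rotor ring subunit, at 846 and Cox4i1, the ubiquitous subunit 4 isoform of complex IV, at 812. The median tested member was at 115 TPM in complex I, 274 in complex II, 229 in complex III, 324 in complex IV and 267 in complex V.

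At 9 h, 15 of the 81 tested members were lower with 10panx1 and 0 were higher (18.5% of members), by edgeR's quasi-likelihood test with a Benjamini-Hochberg adjusted p under 0.05 over all 13392 tested genes. Of all tested genes 9.21% were called, 4.14% lower and 5.06% higher. The changes were small: the called members differed by 10.7% to 34.7%, and the median log2 fold change of the 81 members was -0.14, against -0.003 for all tested genes. The estimate was below 0 for 69 of the 81, against 50.9% of all tested genes. At an unadjusted p under 0.05 there were 41 members, against 24.3% of all tested genes. In 38 members every 10panx1 library lay below every control library, against 15.0% of tested genes, and in 2 every 10panx1 library lay above, against 14.0%. These members and lists were chosen with earlier results of these data known, so the shares describe the members and are no test of them. The median deviation of the members from their control mean was between -0.03 and 0.04 on the log2 scale in the 3 control libraries. In the 10panx1 libraries it was -0.09 in replicate 1, -0.18 in replicate 2 and -0.11 in replicate 3, so replicate 2 was the lowest. Without control replicate 2 the test called 6 members lower, against 2.11% of all genes, with a median over members of -0.12. Without 10panx1 replicate 2 it called 9, against 2.17%, with a median of -0.11. Without control replicate 3, the library with some hepatocyte and fibroblast markers raised, it called 9, against 2.57%, with a median of -0.16. The calls then lost were Cox8a (log2 fold change -0.23, edgeR, adjusted p = 0.0510), Uqcrh (-0.27, 0.0509), Cox7a2 (-0.25, 0.0586), Atp5g3 (-0.25, 0.0677), Cox5b (-0.20, 0.0727) and Atp5o (-0.17, 0.0947). Fewer cells of a kind and less RNA per cell cannot be told apart in such libraries.

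**Figure D1:**
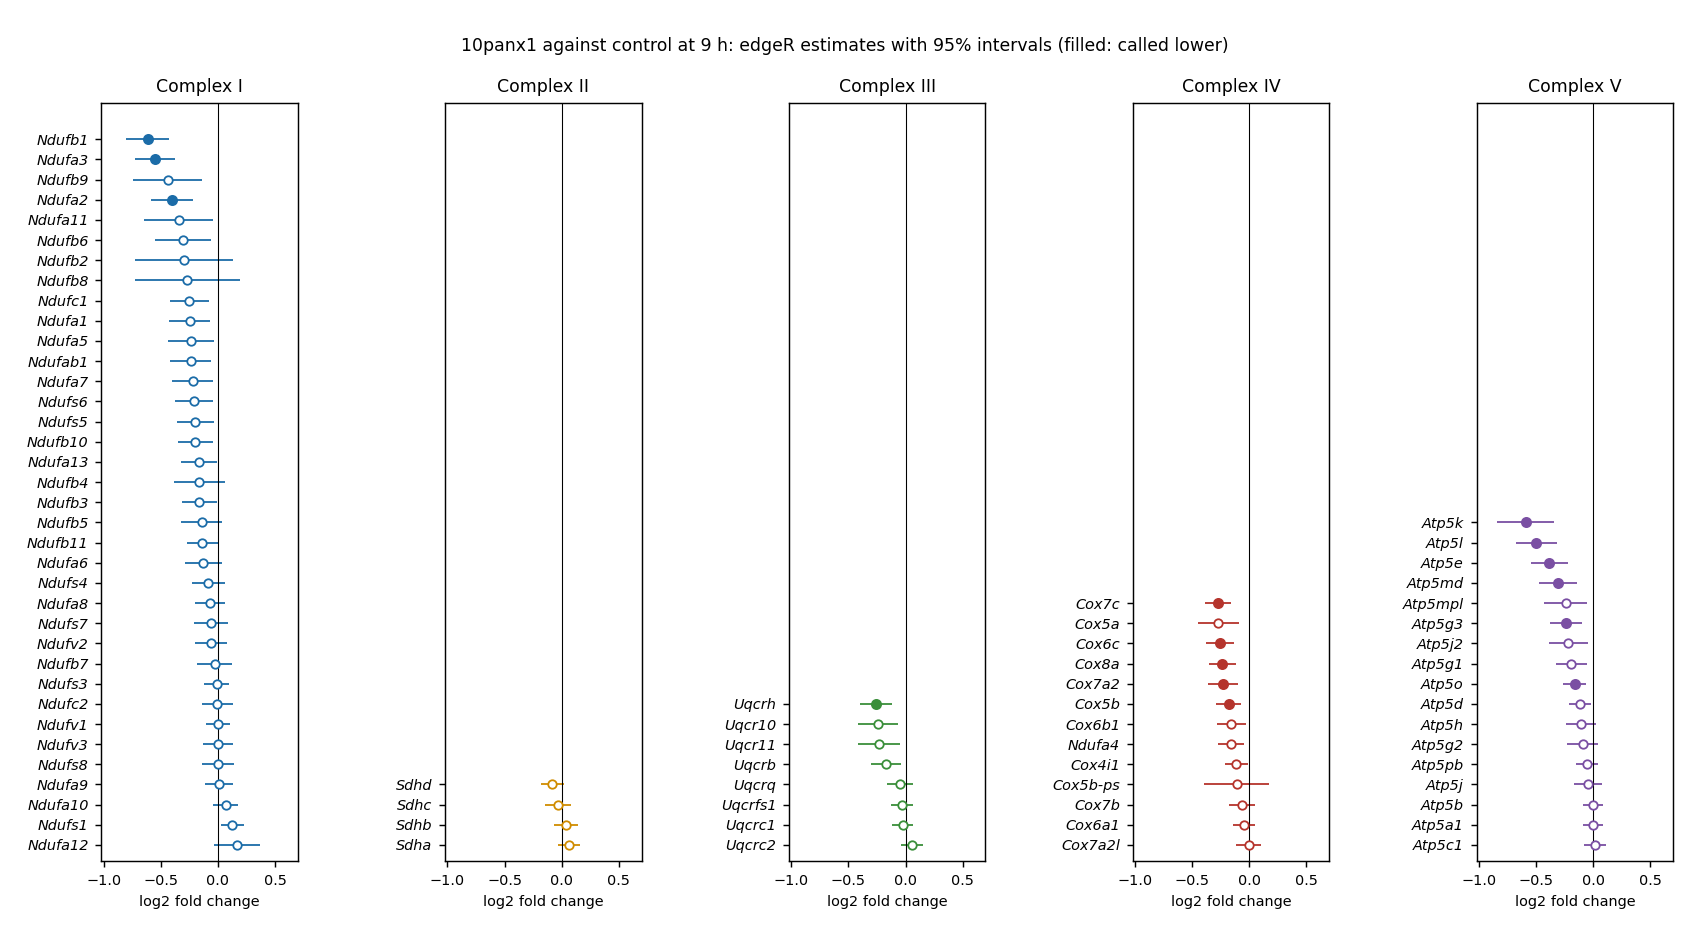
Log2 fold change of each tested member with 10panx1 against control at 9 h (edgeR, 3 against 3 libraries) with its 95% interval, grouped by complex; filled symbols mark the 15 called members. The estimates lie below 0 for 69 of 81 members, and the weakly expressed isoforms Cox6a2 and Cox7a1 and 1 uncalled member of complex I are not drawn.

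In complex I, 3 of 37 tested members fell with 10panx1 at 9 h (8.11%, against 4.14% of all tested genes), and the 3 are supernumerary subunits. Ndufb1, a short subunit of the membrane arm, was at 34.9, 36.6 and 35.0 CPM in the controls and at 24.9, 19.6 and 24.9 CPM with 10panx1. Its groups did not overlap, and it fell by 0.62 on the log2 scale (SE 0.09, edgeR, adjusted p = 0.00156), the largest fall among the members. Ndufa3, another short membrane subunit, was at 29.6, 29.3 and 26.4 CPM in the controls and at 20.8, 18.4 and 19.0 CPM with 10panx1. It fell by 0.55 (SE 0.08, edgeR, adjusted p = 0.00171), again without overlap. Ndufa2, a thioredoxin-like subunit of the peripheral arm, was at 45.5, 50.7 and 45.3 CPM in the controls and at 39.9, 31.3 and 35.9 CPM with 10panx1. It fell by 0.40 (SE 0.09, edgeR, adjusted p = 0.0101), with 10panx1 replicate 2 the lowest library. The table does not name the build of its coordinates, in which Ndufb1 (ENSMUSG00000113902) lies on chromosome 12, bases 101934349 to 101943327, minus strand, and Ndufa3 (ENSMUSG00000035674) chromosome 7, bases 3620372 to 3623326, plus strand.

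None of the 7 core members of complex I, which include those of the electron path, was called, where 9.21% of all tested genes were. Ndufv1, which binds FMN and takes the electrons from NADH, was at 110, 109 and 108 CPM in the controls and at 105, 114 and 108 CPM with 10panx1, with a 95% interval of the log2 fold change from -0.11 to 0.10. Ndufs1, the largest iron-sulfur subunit, was at 122, 118 and 117 CPM in the controls and at 134, 127 and 129 CPM with 10panx1, a log2 fold change of 0.13 (SE 0.05) that did not pass (edgeR, adjusted p = 0.105), although the groups did not overlap. The median log2 fold change was -0.16 over the complex, -0.001 over its core members and -0.20 over its 30 supernumerary members, which ranged from -0.62 to 0.17. The median gene length, described below, was 1661 bases over these core members and 913 over these supernumerary members. The part of length in this contrast was not tested.

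None of the 4 subunits of complex II, succinate dehydrogenase, was called, where 9.21% of all tested genes were. Their median log2 fold change was 0.003. Sdha, the flavoprotein that oxidises succinate, was at 413, 410 and 386 CPM in the controls and at 425, 437 and 401 CPM with 10panx1, so the groups overlapped. Its log2 fold change was 0.06 with a 95% interval from -0.04 to 0.16 (edgeR, adjusted p = 0.441). Sdhd, a membrane anchor, was at 206, 209 and 207 CPM in the controls and at 206, 186 and 194 CPM with 10panx1. The log2 fold change was -0.08, with an interval from -0.18 to 0.02 (edgeR, adjusted p = 0.303). All 4 subunits of complex II are encoded in the nucleus and none is supernumerary.

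In complex III, 1 of 8 members fell (12.5%, against 4.14% of all tested genes), and a single call in 8 does not describe the complex. Uqcrh, the acidic hinge subunit next to cytochrome c1, was at 86.1, 91.8 and 86.7 CPM in the controls and at 77.2, 65.6 and 77.8 CPM with 10panx1. It fell by 0.26 on the log2 scale (SE 0.07, edgeR, adjusted p = 0.0225). Uqcrh (ENSMUSG00000063882) lies on chromosome 4, bases 115924162 to 115932268, minus strand, in the deposited table. Uqcr10, a short subunit of the membrane part, was at 107, 115 and 99.7 CPM in the controls and at 98.6, 76.3 and 96.7 CPM with 10panx1, a log2 fold change of -0.24 (SE 0.08) that did not pass (edgeR, adjusted p = 0.0771). The groups did not overlap for either gene, and replicate 2 was the lowest 10panx1 library for both. Uqcrfs1, the Rieske iron-sulfur protein, and Uqcrc1 and Uqcrc2, the large proteins on the matrix side, had log2 fold changes of -0.03, -0.02 and 0.06 and were not called. Over the complex the median was -0.11.

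In complex IV, 5 of 15 tested members fell (33.3%, against 4.14% of all tested genes). All 5 are supernumerary, since the catalytic subunits of this complex are encoded in mitochondrial DNA. Cox7c was at 107, 109 and 106 CPM in the controls and at 91.6, 82.9 and 91.7 CPM with 10panx1 and fell by 0.27 on the log2 scale (SE 0.05, edgeR, adjusted p = 0.00547). Cox6c was at 95.7, 102 and 95.97 CPM and at 82.8, 75.4 and 86.9 CPM and fell by 0.26 (SE 0.06, edgeR, adjusted p = 0.0133). Both encode short subunits with a single membrane span, and neither gene's groups overlapped. Cox8a, the ubiquitous isoform of subunit 8, was at 164, 165 and 166 CPM in the controls and at 144, 128 and 149 CPM with 10panx1 and fell by 0.24 (SE 0.05, edgeR, adjusted p = 0.0152). Cox7a2, the widely expressed isoform of subunit 7a, was at 131, 138 and 129 CPM and at 126, 106 and 108 CPM and fell by 0.23 (SE 0.06, edgeR, adjusted p = 0.0316). Cox5b, a zinc-binding subunit on the matrix side, was at 119, 120 and 116 CPM and at 109, 98.3 and 105 CPM and fell by 0.18 (SE 0.05, edgeR, adjusted p = 0.0365). In all 5 genes replicate 2 was the lowest 10panx1 library, and the groups did not overlap. Cox7c (ENSMUSG00000017778) lies on chromosome 13, bases 86192935 to 86195023, minus strand, in the deposited table.

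Cox4i1, Ndufa4, Cox7a2l and the muscle isoforms of complex IV were not called at 9 h. Cox4i1 was at 261, 274 and 249 CPM in the controls and at 246, 235 and 243 CPM with 10panx1, a log2 fold change of -0.11 (SE 0.05, edgeR, adjusted p = 0.149) without overlap. Ndufa4 was at 107, 104 and 103 CPM and at 97.2, 87.2 and 96.9 CPM, a log2 fold change of -0.16 (SE 0.05, edgeR, adjusted p = 0.0801), also without overlap. Cox7a2l, known for its part in joining complexes III and IV, was at 154, 146 and 153 CPM and at 142, 150 and 159 CPM, with overlapping groups and a 95% interval from -0.12 to 0.10. The muscle isoforms were near the limit of counting. Cox6a2 was at 0.711, 0.715 and 0.264 CPM in the controls and at 0.898, 0.384 and 0.938 CPM with 10panx1, and Cox7a1 at 0.522, 1.24 and 1.05 CPM and at 0.756, 0.672 and 1.16 CPM. Their intervals, from -0.57 to 1.33 and from -0.91 to 0.69, are too wide to show a change of the size seen in the other members. Cox5b-ps, which the table lists as protein coding, was not called (log2 fold change -0.11).

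In complex V, 6 of 17 members fell (35.3%, against 4.14% of all tested genes). Atp5k, the e subunit, and Atp5l, the g subunit, lie in the membrane part and are known for their role in pairing ATP synthases into dimers. Atp5k was at 18.3, 22.9 and 21.3 CPM in the controls and at 14.8, 11.3 and 15.3 CPM with 10panx1 and fell by 0.59 on the log2 scale (SE 0.12, edgeR, adjusted p = 0.00667). Atp5l was at 24.8, 27.9 and 25.98 CPM and at 20.1, 17.9 and 17.6 CPM and fell by 0.50 (SE 0.08, edgeR, adjusted p = 0.00288). Atp5md, another small membrane subunit associated with dimers, was at 47.7, 53.3 and 47.2 CPM and at 43.2, 35.9 and 40.4 CPM and fell by 0.31 (SE 0.08, edgeR, adjusted p = 0.0240). None of these 3 genes had overlapping groups. In the deposited table Atp5k (ENSMUSG00000050856) lies on chromosome 5, bases 108581110 to 108582314 and Atp5l (ENSMUSG00000038717) chromosome 9, bases 44823855 to 44832040, both on the minus strand.

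The other falls in complex V were in the central stalk, the rotor ring and the peripheral stalk. Atp5e, the epsilon subunit of the central stalk, was at 78.0, 93.8 and 84.1 CPM in the controls and at 72.1, 61.6 and 62.3 CPM with 10panx1 and fell by 0.38 (SE 0.08, edgeR, adjusted p = 0.00628). Atp5g3, 1 of 3 genes for the same mature c subunit of the rotor ring, was at 304, 300 and 295 CPM and at 288, 242 and 230 CPM and fell by 0.24 (SE 0.07, edgeR, adjusted p = 0.0331). The other c subunit genes, Atp5g1 and Atp5g2, had log2 fold changes of -0.19 and -0.09 and were not called. Atp5o, which joins the peripheral stalk to the catalytic head, was at 144, 141 and 140 CPM and at 126, 121 and 131 CPM and fell by 0.16 (SE 0.05, edgeR, adjusted p = 0.0409). Atp5b was at 1664, 1625 and 1612 CPM in the controls and at 1654, 1624 and 1611 CPM with 10panx1, a difference of -0.127% with a 95% interval of the log2 fold change from -0.09 to 0.08. Atp5a1 was at 873, 880 and 868 CPM and at 865, 898 and 853 CPM, with an interval from -0.09 to 0.09. The gamma subunit gene Atp5c1, which forms the rotating shaft, had a log2 fold change of 0.02. The median over complex V was -0.16.

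**Figure D2:**
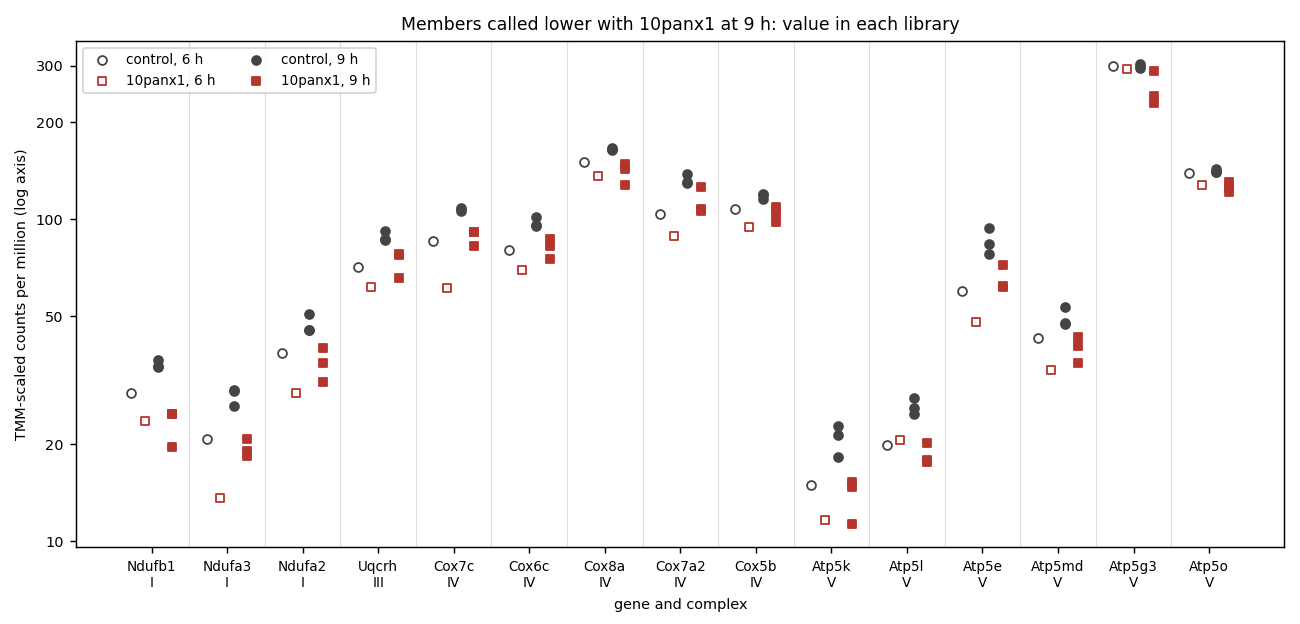
TMM-scaled CPM (log axis) of the 15 members called lower with 10panx1 at 9 h, 1 symbol per library, with the complex under each gene name; circles are control and squares 10panx1, open at 6 h and filled at 9 h. At 9 h the groups of none of these genes overlap, and at 6 h the 10panx1 library lies below the control library in 14 of the 15.

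Sorted by role, 2 of 21 core members (Atp5g3 and Atp5o) were lower at 9 h (9.52%), with a median log2 fold change of -0.03. Of 57 supernumerary members 13 were lower (22.8%), with a median of -0.20. Over all tested genes 4.14% were lower. None of the 3 tested isoforms or copies was called. Roles were assigned after the values had been seen, so this is a description. The roles also differ in gene length, described below. The median was 1661 bases over the tested core members and 908 over the supernumerary members, and the part of length in this split was not tested. In the sum of the deposited TPM over all members, the controls at 9 h averaged 19274 ± 355 (SD, n = 3) and the 10panx1 libraries 17921 ± 520 (SD, n = 3), a difference of -7.02% without overlap. The sum over supernumerary members differed by -10.2% without overlap, and the sum over core members by -2.65% with overlapping groups. By complex the difference was -7.14% in complex I, -0.169% in complex II, -8.30% in complex III, -9.65% in complex IV and -5.62% in complex V, with overlapping groups in complex II alone of the 5. No p is given for such sums.

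**Figure D3:**
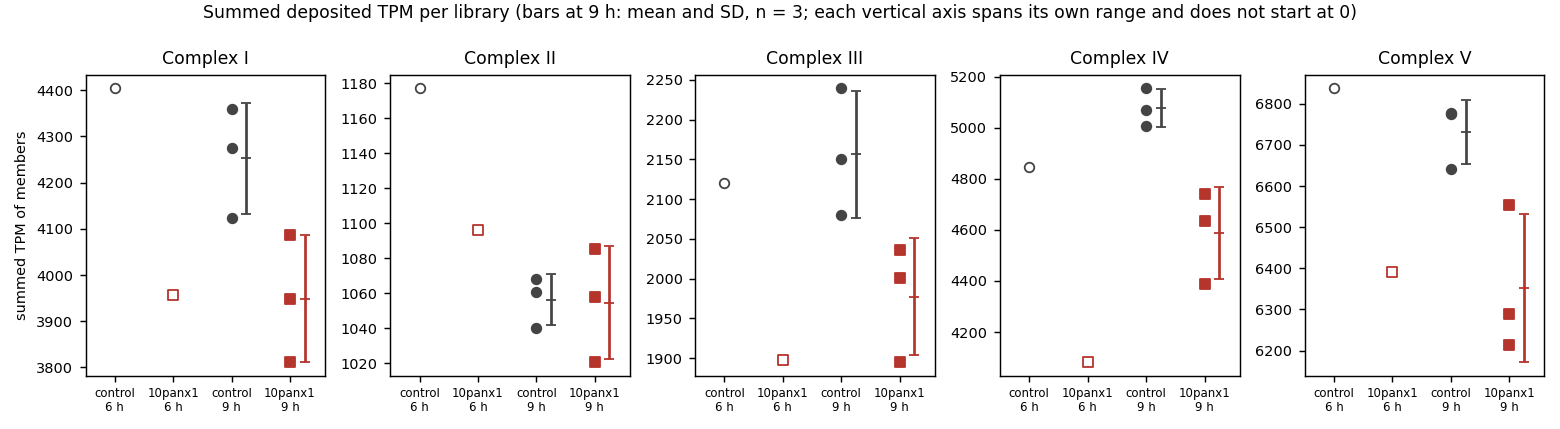
Summed deposited TPM of the members of each complex, 1 symbol per library, by treatment and time; at 9 h bars give the mean and SD (n = 3), and each vertical axis spans its own range and does not start at 0. At 9 h the 10panx1 libraries lie below all controls in complexes I, III, IV and V, and the groups overlap in complex II.

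The fold change with 10panx1 at 9 h went with gene length, and the members are shorter than genes in general. Gene length, taken from the ratio of deposited counts to TPM, had a median of 1005 bases over the tested members and 3088 over all tested genes. That ratio is relative and was scaled to bases by its most common match to GENCODE M21 exon lengths. After scaling, 19.2% of 9130 genes lay within 5% of their GENCODE length, so the bases are approximate. Among protein-coding genes outside the members, sorted into 12 bins of length, the median log2 fold change was -0.08 in the shortest bin (median 1046 bases) and 0.06 in the longest (8768 bases). Of the 15 called members 11 were under 1000 bases. Under 1000 bases, 11 of 39 tested members were lower, with a median of -0.20, against 33 of 410 other protein-coding genes (8.05%), with a median of -0.11. From 1000 bases on, 4 of 42 members were lower (9.52%), with a median of -0.05, against 4.26% of other protein-coding genes, with a median of 0.001. With each library's trend with length removed, 9 members were still called lower (Ndufb1, Ndufa3, Ndufa2, Cox7c, Cox6c, Atp5k, Atp5l, Atp5e and Atp5md), against 3.94% of all genes, and the members' median was -0.08, against 0.001 for all genes. Uqcrh, Cox8a, Cox7a2, Cox5b, Atp5g3 and Atp5o then had log2 fold changes of -0.19, -0.14, -0.14, -0.12, -0.18 and -0.10 and were not called. The part of RNA quality or of library preparation in the trend with length was not tested.

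**Figure D4:**
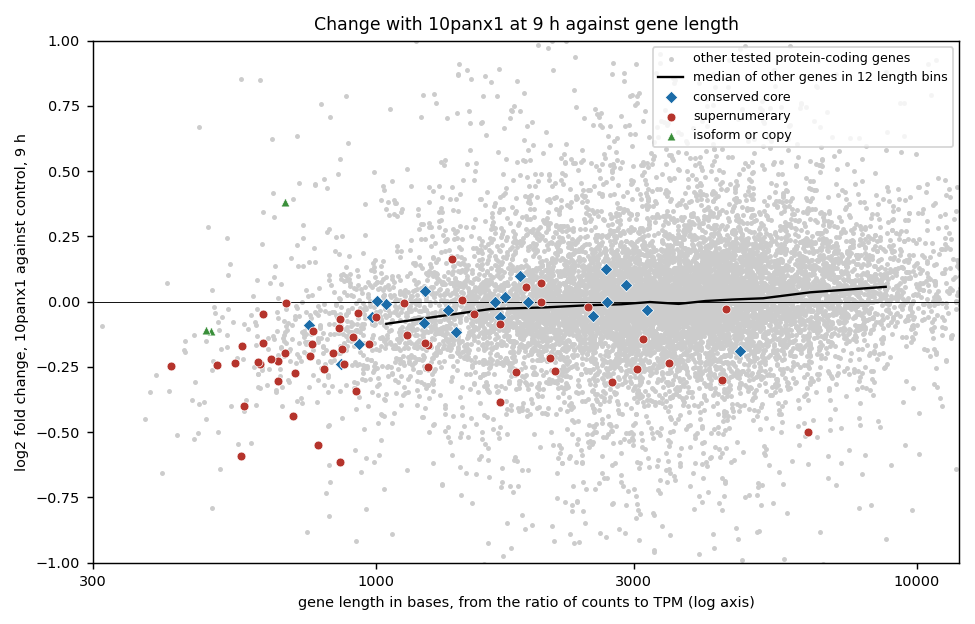
Log2 fold change with 10panx1 against control at 9 h against gene length in bases (log axis), for tested members by role and for other tested protein-coding genes (grey), with the median of the latter in 12 bins of length (line); points beyond -1 or 1 are not drawn. The line runs from -0.08 at 1046 bases to 0.06 at 8768 bases, and the 39 tested members under 1000 bases have a median of -0.20.

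Reads of several members could be shared with other genes, and neither the strand setting of the counting nor the treatment of reads with several matches is given in the sources used here. In the table's coordinates 9 of the 15 called members overlap another gene, and 30 of the 66 that were tested and not called. Ndufb1, for example, overlaps Cpsf2 and Ndufa3 overlaps Tfpt, each on the opposite strand. Near-identical pseudogenes (at least 95% identity over at least 150 bases, GENCODE M21) were searched for in 87 of the 88 members, Ndufb1 being the exception. They were found for 6 of the 14 called members searched and for 16 of the 66 others tested. For Atp5l there were 8, which held 2882 counts over the 8 libraries, against 3639 in the gene itself. In Atp5k, Cox7c and Cox6c the copies held 20, 23 and 37 counts, against 2723, 15394 and 14388 in the genes. In Atp5md and Atp5o they held 372 and 471, against 7210 and 22371. Ndufa12, not called at 9 h but described below, had 1 copy with 1272 counts, against 8242 in the gene. Some members had unusually low deposited TPM for ubiquitous subunits: Ndufb2 was at a mean of 1.28 TPM, Ndufb8 at 3.82 and Atp5l at 8.94. Their gene lengths, by which TPM divides, were 4371, 2142 and 6310 bases, against a median of 1005 over the tested members. Ndufb2 overlaps Gm42420 and Ndufb8 overlaps Gm20538 on the same strand. The part of shared reads or of gene length in these levels was not tested.

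At 6 h, with 1 library per group and hence no replicate check, 74 of the 81 members had a lower value in the 10panx1 library (91.4%), against 49.0% of all genes tested at 9 h. The median log2 ratio of the members was -0.17, against 0.001 for all genes. The ratio at 6 h went with length too: under 1000 bases it was negative in 92.3% of tested members, with a median of -0.23, and in 74.1% of other protein-coding genes, with a median of -0.14. Of the 15 members called at 9 h, 14 had a negative log2 ratio at 6 h, as had 82.9% of all 555 genes called lower at 9 h. The exception was Atp5l, at 19.9 CPM (control) and 20.6 CPM (10panx1). Ndufa3 was at 20.8 and 13.7 CPM (log2 ratio -0.60), Cox7c at 85.7 and 61.2 CPM (-0.49), Ndufa2 at 38.5 and 28.8 CPM (-0.42) and Ndufb1 at 28.8 and 23.6 CPM (-0.29). Atp5g3 was at 300.2 and 294 CPM (-0.03). Cox4i1, not called at 9 h, was at 234 and 185 CPM (-0.34). Summed TPM over complex IV was 15.7% lower in the 10panx1 library, complex I 10.1%, complex III 10.5%, complex II 6.89% and complex V 6.52%. Members took 0.967% of counts (control) and 0.869% (10panx1), against 0.934% to 0.967% in controls and 0.875% to 0.915% in 10panx1 libraries at 9 h.

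**Figure D5:**
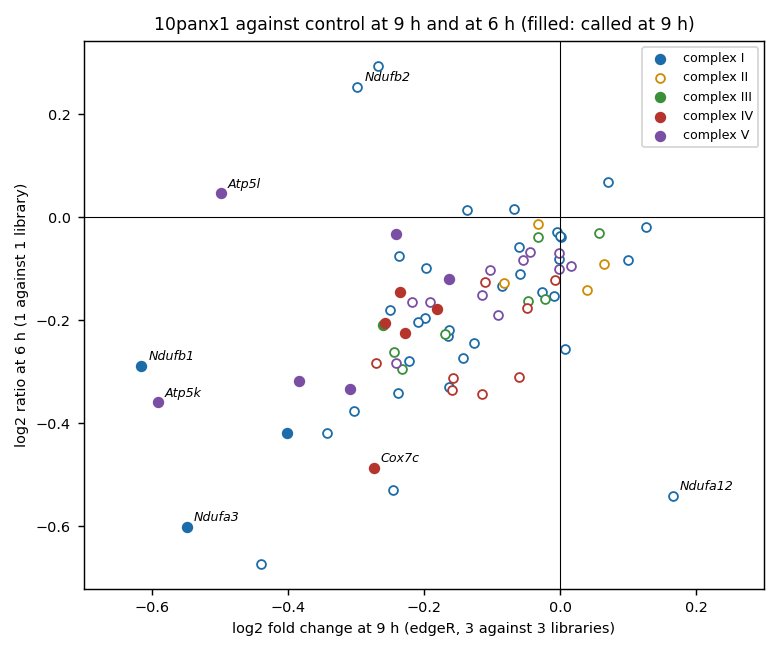
Log2 ratio of the 10panx1 to the control library at 6 h (1 against 1, vertical axis) against the log2 fold change at 9 h (3 against 3, horizontal axis) for the tested members, coloured by complex and filled where called at 9 h; the weakly expressed isoforms Cox6a2 and Cox7a1 are left out. Filled symbols other than Atp5l lie below 0 on both axes, and Ndufa12 lies at -0.54 at 6 h and 0.17 at 9 h.

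Whether the difference with 10panx1 itself changed between 6 h and 9 h was tested in a single model of all 8 libraries. It called 0 of 15331 genes and so no member (edgeR, 0.0% called), and DESeq2 also called 0. At an unadjusted p under 0.05 there were 6 members (Atp5l, Cox4i1, Cox7a1, Cox7b, Ndufa12 and Ndufa9), against 5.7% of all genes. Ndufa12, an accessory subunit of the peripheral arm of complex I, was at 52.0 CPM (control) and 35.7 CPM (10panx1) at 6 h. At 9 h it was at 47.9 ± 5.98 CPM (SD, n = 3) and 53.7 ± 6.23 CPM (SD, n = 3). Its 10panx1 difference was higher at 9 h by 0.71 on the log2 scale (edgeR, adjusted p = 0.847), and without a filter on low counts it was the only member called higher (edgeR, adjusted p = 0.0029), against 0.0393% of all genes. With a single library per group at 6 h this test cannot show that the differences at the 2 times are alike.

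Across both treatments, 33 of the 81 tested members were higher and 3 lower at 9 h than at 6 h (edgeR with treatment as a covariate, 44.4% of members), where 31.6% of all 14315 tested genes were higher and 31.5% lower, 63.1% in all. The median log2 fold change was 0.14 over the members and -0.001 over all tested genes. Complex IV had 11 of 15 members higher and none lower, complex III 4 of 8 and none, complex V 6 of 17 and 1, complex I 11 of 37 and 1, and complex II 1 of 4 and 1. Ndufb2, a small membrane-arm subunit, rose from 0.830 and 1.01 CPM at 6 h (control and 10panx1) to 2.60 ± 0.374 CPM over both treatments at 9 h (SD, n = 6), by 1.497 on the log2 scale (SE 0.26, edgeR, adjusted p = 7.56e-05). Ndufa1, a short membrane-anchored subunit needed for assembly of complex I, rose from 20.4 and 14.1 CPM to 26.8 ± 3.19 CPM, by 0.64 (SE 0.10, edgeR, adjusted p = 2.73e-05). Atp5e rose from 59.7 and 47.9 CPM to 75.3 ± 12.6 CPM, by 0.48 (SE 0.08, edgeR, adjusted p = 3.68e-05). Atp5e was thus higher at 9 h than at 6 h while being lower with 10panx1 than in control at 9 h. All 6 libraries at 9 h lay above both libraries at 6 h in these 3 genes.

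The 3 members that were lower at 9 h were Ndufb7, Sdhd and Atp5a1. Ndufb7, a subunit on the intermembrane-space side of complex I, was at 49.8 and 45.1 CPM at 6 h and at 34.8 ± 1.42 CPM at 9 h (SD, n = 6) and fell by 0.45 (SE 0.07, edgeR, adjusted p = 1.99e-05). Sdhd was at 232 and 212 CPM at 6 h and at 201 ± 9.01 CPM at 9 h and fell by 0.15 (SE 0.05, edgeR, adjusted p = 0.0112). Atp5a1 was at 980 and 914 CPM at 6 h and at 873 ± 15.3 CPM at 9 h and fell by 0.12 (SE 0.04, edgeR, adjusted p = 0.0171). Atp5a1 was not called with the trend with length removed (-0.06, edgeR, adjusted p = 0.259). Without the control library at 6 h 26 members were called higher and 1 lower, against 23.3% and 21.8% of all genes. Sdhd (-0.12, edgeR, adjusted p = 0.143) and Atp5a1 (-0.07, edgeR, adjusted p = 0.307) then lost the call. Without the 10panx1 library at 6 h 14 members were called higher and 4 lower, against 24.6% and 23.0% of all genes. The split depends on the scale: with limma on log2(TPM + 1), where the median of all genes shifted to -0.11, 16 members were higher and 20 lower, against 23.3% and 38.6% of all genes, and the members' median was 0.02, above that of all genes. No batch is labelled, so time and batch cannot be told apart, and mitochondrial transcripts took 1.428% and 1.515% of counts at 6 h and 1.141% to 1.284% at 9 h.

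Of 10 tested subunits encoded in mitochondrial DNA none fell and 2 rose with 10panx1 at 9 h (against 5.06% of all tested genes), both subunits of complex I. The estimate was nevertheless below 0 for 7 of the 10, with a median log2 fold change of -0.05. In 2 of the 10 every 10panx1 library lay below every control library, and in 2 above. Here mt-Nd1 rose from 681 ± 20.5 to 811 ± 80.5 CPM (SD, n = 3 each), by 0.25 on the log2 scale (SE 0.06, edgeR, adjusted p = 0.0179), and mt-Nd2 from 343 ± 26.9 to 461 ± 38.9 CPM, by 0.43 (SE 0.06, edgeR, adjusted p = 0.00184). Of 15 assembly factors of complex I none was called, with a median log2 fold change of -0.06. Of 30 tested assembly factors of complexes II to V, 1 fell (3.33%, against 4.14% of all tested genes). This was Cox17, the copper chaperone of complex IV, from 86.3 ± 3.38 to 73.9 ± 2.00 CPM, by 0.22 (SE 0.05, edgeR, adjusted p = 0.0178). None of 13 enzymes of the tricarboxylic acid cycle was called (median 0.01), none of 4 tested electron carriers next to the members, such as Cycs (median -0.03), and none of 11 tested regulators of mitochondrial biogenesis, such as Nrf1 and Tfam (median -0.05). Over all tested genes 9.21% were called, and at that share lists this short can hold few or no calls. Whether these lists differ from the members was not tested. Of the 11 tested microglial markers 5 were called at 9 h (45.5%, against 9.21% of all tested genes). Ptprc (log2 fold change 0.29, edgeR, adjusted p = 0.00413), Csf1r, Cx3cr1 and Fcgr3 were higher and Tyrobp lower (-0.25, edgeR, adjusted p = 0.0331). Their part in the members' result was not tested.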

How the data were processed

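Poly(A) RNA of BV2 cells went into directional libraries, per the labels' protocols. One deposited table gives the whole-number count of reads for every gene, and another gives the TPM that the authors derived per library. The submitters' processing notes name FastQC, Trimmomatic, STAR, featureCounts, DESeq2 and GRCm38, with neither version nor role. Of 57010 rows 151 repeats of symbols, identical in their counts, were dropped. The rule matched 97 rows, of which 8 Ndufaf rows and 1 repeat were dropped, and 18 matching symbols with a pseudogene biotype were not members.

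The whole count table was fitted by quasi-likelihood in edgeR 4.0.16 under R 4.3.3 after TMM scaling and filterByExpr, and calls were made at a Benjamini-Hochberg adjusted p under 0.05, on 6 libraries at 9 h and on 8 for time (with treatment as covariate) and the interaction. Standard errors come from the quasi-likelihood statistic. CPM are TMM-scaled, and a prior count of 2 was added for the ratios at 6 h. The members, gene lists and tests were chosen with earlier results of these data known. Full values were given by rule for members called at 9 h, the 2 with the smallest p in each complex, the 3 largest called changes with time in each direction, and 9 isoform or regulatory genes, of which Atpif1 is not a member. Catalytic subunits and Ndufa12 were named in addition, after their values were seen. The values of 1 member of complex I are not reported here, though it is counted. From the other lists up to 3 called genes with the smallest p were named, and Cx3cr1 and Tyrobp after their values were seen.

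Alternatives were RLE and upper quartile scaling, stricter and absent filters, DESeq2 1.42.0, limma-voom with limma 3.58.1, limma on log2 of the deposited TPM with a pseudocount of 1 or 0.1, a fit of all 8 libraries, a replicate block, removal of trends with gene length, and leaving out each library. Removal of trends with length and GC together was added after the data were seen, as was removal of the length trend for the interaction. No pair of replicates looked like a library deposited again, since the chi-square statistic was 4.03 to 7.04 per degree of freedom. Each test was also run on simulated data with 50 changed genes per fold, 200 in all, drawn from genes with a mean of at least 50 counts. At 1.25-fold, 56% of these were recovered for treatment at 9 h, 66% for time and 4% for the interaction. At 1.5-fold the shares were 84%, 80% and 44%, and at 2-fold 100%, 98% and 80%. Of the calls, 7.61%, 7.03% and 10.7% were false. The interaction test thus misses most changes as small as 1.25-fold. These shares do not cover genes with fewer counts, such as Cox6a2 and Cox7a1. The real fits for treatment at 9 h and for time called 1233 and 9037 genes, more than were changed in the simulation. Near-identical pseudogenes were searched with BLAST 2.17.0, and summaries and plots were made with Python 3.11.15, pandas 2.3.3 and matplotlib 3.10.9. Intervals cover 95% and floors of 3 counts cover counting error only.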

Additional observations from a re-analysis of the deposited data

How the results depend on the processing

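The 15 members called lower at 9 h were called with RLE and upper quartile scaling and with a mean of at least 50 counts. Of all genes 4.08%, 4.29% and 5.28% were then lower. The same 15 were among 22 called without a filter, 18 called by DESeq2 and 16 by limma-voom, and 12 of them were called in the fit of all 8 libraries. In these fits 3.25%, 4.28%, 4.08% and 2.98% of all genes were lower. With limma on log2(TPM + 1) or log2(TPM + 0.1) 5 members were called lower (Ndufb1, Ndufa3, Cox7c, Atp5k and Atp5l), against 1.28% and 1.27% of all genes. Without a filter on TPM 0 members were called, as were 0 of all 27104 genes, with 35 members at an unadjusted p under 0.05. The cause was not tested. Removing the trend with length left 9 members lower, with a median log2 fold change of -0.077 for the 81 tested members. With GC removed as well 9 were lower and 1 higher (median -0.075), against 4.25% and 4.89% of all genes. With the replicate block on top of the length trend 14 were lower and 2 higher (median -0.078), against 5.97% and 7.37%. Leaving out 1 library at 9 h gave 6 to 20 called members, all lower, and medians from -0.16 to -0.11. The share of all genes called lower moved too, from 1.92% to 4.53%. For 9 h against 6 h, leaving out 1 library gave 18 to 44 called members, against 36 with all libraries. Of all genes 21.8% to 31.8% were then lower and 23.3% to 32.0% higher. For the interaction, no filter gave 1 called member, Ndufa12, and the other alternatives gave 0. Cox7a1 and Cox7a2l, neither called in any alternative, changed sign. Cox7a1 was at 0.0032 with the length trend removed and 0.014 with the block as well, and from -0.404 to 0.154 in fits without 1 library. Cox7a2l was at 0.0426 with the length trend removed, 0.0411 with the block as well, 0.0467 with GC removed, and from -0.0531 to 0.0318 in fits without 1 library. Same-numbered control and 10panx1 libraries had correlations of deviations of 0.094, -0.007 and 0.074, and differently numbered ones from -0.112 to 0.042. Whether the replicate numbers pair the libraries was thus not settled. With the replicate block 22 members were called, all lower, against 6.29% of all tested genes, and these included the same 15. Depth limits the weakly expressed isoforms: 7 members had too few counts to be tested, and single libraries at 6 h allow no test there.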
